A study of Mus musculus with 4 samples.

Results

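The regions described here are 2324 distal sites of open chromatin that were called in Med23 knockout (KO) hematopoietic stem cells and shared no base with a peak called in wild type (WT) cells. They were chosen from the autosomal peaks of the KO list by 3 measured properties: no overlap with any WT peak, a summit more than 2.5 kb from every annotated start site, and a width of at least 400 bp. The KO list held 36600 autosomal peaks. Of these, 7622 (20.8%) shared no base with a WT peak, 5607 of those were distal, and 3283 of the distal ones were narrower than 400 bp. Among all 12846 distal KO peaks of at least 400 bp, the selected sites made up 18.1%. The mirrored rule gave 2448 sites in the WT list only, 19.3% of the 12715 distal WT peaks of that width.

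The assay was ATAC-seq, a method that cuts and tags open DNA with a transposase, on 5000 sorted cells per sample with a transposition of 30 min. The cells were adult bone marrow stem cells of C57BL/6 mice, described as LSK CD150+CD34-CD48-. The study's ATAC-seq methods give the gate as LSK CD150+CD48-, without CD34. WT cells carried floxed Med23 alleles and no cre, written WT(Med23floxp/flowp), and KO cells carried the same alleles with the transgene, written KO(Mx1-cre;Med23floxp/flowp). The Mx1 promoter is switched on by interferon in many tissues, so deletion, induced in the study with poly(I:C), was not limited to stem cells. Mx1-cre itself was present only in the KO mice, and its presence and the loss of Med23 cannot be told apart. The labels name 2 samples per genotype and the same single peak list for both, so n was 1 list per genotype. No difference between the genotypes could be set against a spread between replicates, and the intervals below cover counting error over sites only.

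Med23 is a subunit of Mediator, the complex that carries signals from transcription factors bound at enhancers to RNA polymerase II at promoters. Enhancers lie mostly in introns and between genes, and when factors occupy them they are seen as peaks of open chromatin away from start sites. In stem cells of the marrow such sites are bound by factors of the ETS, RUNX and GATA families. PU.1 is itself an ETS factor of myeloid and lymphoid cells, and C/EBP proteins act in the myeloid branch.

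The lists carried the marks of the labelled cells only in part. A peak with its summit within 1 kb of a start site was present at 9 of 12 stem cell genes in the WT list and at 8 in the KO list. Ly6a, Slamf1 and Procr had none in either list, although Ly6a and Slamf1 encode the sorting markers Sca-1 and CD150, and Hoxa9 had one in the WT list only. Of 6 neutrophil and monocyte genes, S100a8 had such a peak in the WT list and none had one in the KO list. None of 4 T and NK cell genes had a promoter peak in either list, and 1 of 3 B cell genes had one in both (Pax5). Across all autosomal peaks the median fold enrichment was 7.41 in the KO list and 6.38 in the WT list. Fold enrichment is the summit pileup over the local background, with 1 added to each, as the authors' caller gives it. The number of reads behind each list is unknown.

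Of the 5 KO-only distal sites with the highest fold enrichment, 4 are shown as 200 bases of mm10 centred on the summit, plus strand, since they are among the clearest calls of the group. Capitals mark matches, on either strand, to any of 13 short motifs that are spelled out in the motif section.
Spry2 side, chr14:105647276-105647475: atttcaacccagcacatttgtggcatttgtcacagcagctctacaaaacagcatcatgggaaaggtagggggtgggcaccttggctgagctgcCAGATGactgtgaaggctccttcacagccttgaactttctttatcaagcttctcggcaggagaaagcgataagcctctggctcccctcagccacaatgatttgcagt
Flrt2 side, chr12:96134241-96134440: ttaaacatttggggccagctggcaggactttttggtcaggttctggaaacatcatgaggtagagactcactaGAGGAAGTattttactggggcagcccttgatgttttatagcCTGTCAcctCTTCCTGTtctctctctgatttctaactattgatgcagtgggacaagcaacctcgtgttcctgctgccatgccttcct
Cdk6 side, chr5:3146601-3146800: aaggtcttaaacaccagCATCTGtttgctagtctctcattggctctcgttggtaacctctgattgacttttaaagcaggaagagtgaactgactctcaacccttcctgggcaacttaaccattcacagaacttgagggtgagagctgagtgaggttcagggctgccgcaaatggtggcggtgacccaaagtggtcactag
Gspt1 side, chr16:11270744-11270943: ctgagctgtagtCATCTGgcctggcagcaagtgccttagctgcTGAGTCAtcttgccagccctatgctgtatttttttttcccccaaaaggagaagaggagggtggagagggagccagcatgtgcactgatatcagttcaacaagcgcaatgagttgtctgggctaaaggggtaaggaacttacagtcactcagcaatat
The site nearest to Flrt2 held the PU.1 letters from base 73 to 80 and the ERG letters on the minus strand from base 123 to 130. The Gspt1 site held an AP-1 match from base 44 to 50.

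A further 4 sites are shown because they belonged to the 5 of highest fold enrichment among sites whose nearest protein-coding gene stood on a list of blood or stem cell genes.
Foxo1 side, chr3:52555120-52555319: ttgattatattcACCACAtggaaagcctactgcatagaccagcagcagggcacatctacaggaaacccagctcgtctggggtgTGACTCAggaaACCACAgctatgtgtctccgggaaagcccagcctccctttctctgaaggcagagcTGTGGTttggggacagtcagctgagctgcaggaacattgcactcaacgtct
Cdkn1c side, within Kcnq1, chr7:143373354-143373553: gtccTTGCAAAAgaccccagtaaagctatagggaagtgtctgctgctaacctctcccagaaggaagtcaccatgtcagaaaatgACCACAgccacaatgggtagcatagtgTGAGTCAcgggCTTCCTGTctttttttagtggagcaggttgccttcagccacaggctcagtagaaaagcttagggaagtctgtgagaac
Lyz2 side, chr10:117274949-117275148: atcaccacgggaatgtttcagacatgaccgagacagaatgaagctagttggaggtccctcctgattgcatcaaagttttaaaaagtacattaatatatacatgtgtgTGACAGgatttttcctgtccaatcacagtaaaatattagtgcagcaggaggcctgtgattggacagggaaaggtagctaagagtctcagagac
Zfpm1 side, within Gm20388, chr8:122275098-122275297: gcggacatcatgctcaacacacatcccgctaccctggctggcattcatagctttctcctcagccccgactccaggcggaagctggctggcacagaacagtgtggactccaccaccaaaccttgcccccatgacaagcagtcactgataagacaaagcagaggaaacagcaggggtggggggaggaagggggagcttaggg
The Foxo1 window held 3 RUNX matches and an AP-1 match that ends 4 bases before the second of them. The Cdkn1c window held RUNX, AP-1, ERG and C/EBP letters, and the Zfpm1 window none of the 13 motifs. In the Lyz2 window 57.5% of the bases were marked as repeat in the reference, against 5% in the Foxo1 window.

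The KO-only distal sites were shallow peaks. Their fold enrichment had a median of 5.39, from 2.60 to 16.0, and 17.3% of them lay at or above the median of all autosomal KO peaks. The pileup at the summit, recovered from the authors' fold enrichment and −log10 p, had a median of 12 fragments, with the middle 50% of sites between 9 and 15 and a maximum of 42. The 10522 distal KO peaks that overlapped a WT peak had a median pileup of 21, and the WT-only distal sites one of 11. Since overlap, width and calling chose the sites, these values are given as a description. At a fold enrichment of 10 or more there were 72 KO-only sites (3.1%) and 18 WT-only sites (0.735%). The KO list as a whole also had the higher values, with a median of 7.41 against 6.38 over all autosomal peaks. The shares of all peaks at that limit were not counted, so these counts do not set the KO-only sites apart from their list. The WT list gives no value where it has no peak. Its lowest called autosomal pileup was 6 fragments, so a WT signal below the calling limit at these places cannot be seen.

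**Figure D1:**
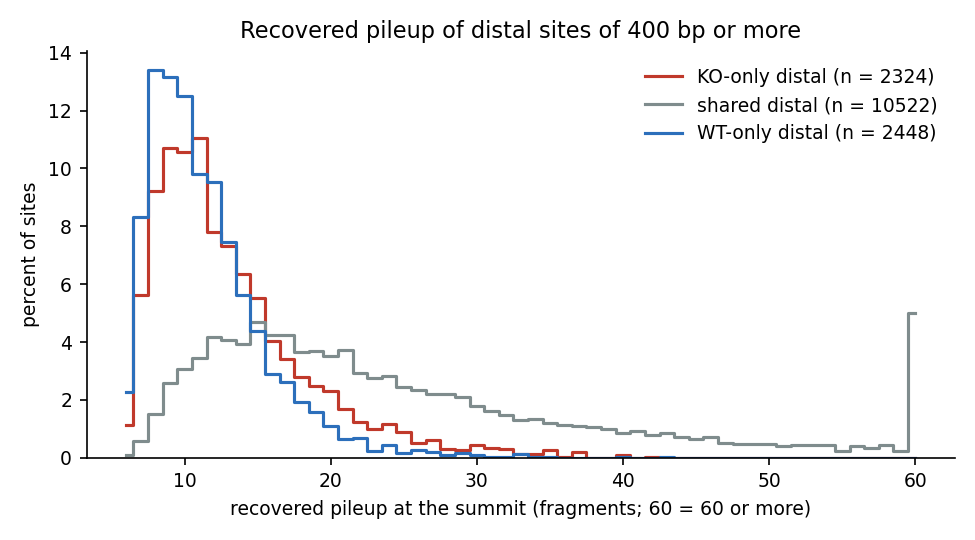
Percent of distal sites (y axis) at each recovered summit pileup in fragments (x axis, values of 60 or more in the last bin) for KO-only sites (n = 2324), shared KO sites (n = 10522) and WT-only sites (n = 2448). Both one-list groups crowd at low pileups, with medians of 12 and 11, while the shared sites have a median of 21 and reach far higher.

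The narrowest selected site with the highest fold enrichment, 400 bp wide and 21.9 kb from Fgfrl1, had a fold enrichment of 7.95, and its 399 bp counterpart in an intron of Tcerg1l, left out, had 10.3. In all, 104 sites were within 10 bp above the width limit and 145 KO-only distal peaks were within 10 bp below it. A site 2503 bp from the Dlk1 start, with a fold enrichment of 3.74, was kept. One 2498 bp from the start of Gm24478, with 7.80, was not. The selected site nearest to a WT peak lay 12 bp from it, near Nup160, and the least overlapping shared peak, near Rspo4, overlapped by 7 bp. Only 16 selected sites lay less than 100 bp from a WT peak.

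The strongest site of all lay between genes on chromosome 14 (105647176 to 105647627), 249 kb from Spry2, an inhibitor of receptor tyrosine kinase signaling. Its fold enrichment was 16.0, at the 97.2 percentile of the KO list, on a pileup of 42 fragments, and the nearest WT peak was 14.1 kb away. The next site lay 439 kb from Flrt2, which encodes a cell adhesion and axon guidance protein, with a fold enrichment of 14.8 and 35 fragments. A site 195 kb from Cdk6, the cyclin-dependent kinase that controls exit of stem cells from quiescence, also had 35 fragments and a fold enrichment of 14.5. Its nearest WT peak was only 5.22 kb away. None of these top 3 sites fell within a gene.

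Within genes, the strongest site lay in an intron of Ptprd, a receptor phosphatase of neurons, at a fold enrichment of 14.3 and 37 fragments. An intron of Elmsan1 held a site of 13.6, 3.17 kb from its start. An intron of Zfhx3, a large homeobox and zinc finger transcription factor gene, held one of 13.1, and no WT peak lay within 301 kb of it. The intron site in 1700029H14Rik had 13.3, and the one assigned to Msantd4 lay in an intron of the glutamate receptor gene Gria4. Between genes, the remaining sites of the leading 12 were nearest to Gspt1 (14.3), a translation termination factor, Ext1 (14.2), which builds heparan sulfate chains, Foxo1 (13.6), and Fam174a (13.4). The Foxo1 site lay 287 kb from the start of that gene, a transcription factor needed for stem cell resistance to oxidative stress, with 28 fragments. Of the leading 12, 5 lay in introns and 7 between genes.

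The widest sites were not the strongest ones. They were nearest to Osbpl1a (1590 bp, fold enrichment 5.38), Rarb (1484 bp, 4.78), Ripk2 (1414 bp, 5.26), Paxip1 (1397 bp, 4.03) and Elf1 (1392 bp, 7.10). The Elf1 site, in an intron of that ETS factor gene, had 23 fragments at its summit, against 8 to 12 for the other 4.

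Introns held the largest share of the KO-only distal sites. The summit fell in an intron in 1245 sites (53.6%, 95% Wilson interval 51.5 to 55.6), between genes in 987 (42.5%, 40.5 to 44.5) and in an exon in 92 (3.96%, 3.24 to 4.83). Introns held 50.1% of the shared distal sites and 49.4% of the WT-only ones. The KO-only share was higher by 3.43 percentage points than the shared one (95% Newcombe interval 1.18 to 5.66) and by 4.14 points than the WT-only one (1.31 to 6.97). A further comparison took the 6274 shared sites with pileups of 7 to 24, where the difference was 3.17 points (0.794 to 5.54). That pileup range held the middle 90% of the KO-only sites and was chosen after the data were seen. The median pileup of these shared sites was still higher, at 16 against 12. In steps of pileup, the KO-only intron share was the higher one at 6 to 9, 10 to 14 and 15 to 19 fragments. At 20 to 29 fragments it was not (48.3% of KO-only and 49.4% of shared sites). Within protein-coding genes lay 52.2% of the KO-only sites, 48.2% of the shared and 47.3% of the WT-only sites. Genes without a protein product alone held 124 KO-only sites (5.34%).

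Distances to genes were nearly the same in all groups. The nearest start site of any gene was a median of 13.8 kb (13754.5 bp) from the summit of a KO-only site, 14329.5 bp for shared and 13846.5 bp for WT-only sites, with overlapping intervals. The nearest protein-coding start was a median of 24552 bp away, and 416 KO-only sites (17.9%) lay more than 100 kb from one. Sites 2.5 to 10 kb from a coding start made up 25.6% of the KO-only group and 23.4% of the shared group, a difference of 2.15 points (0.235 to 4.13).

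**Figure D2:**
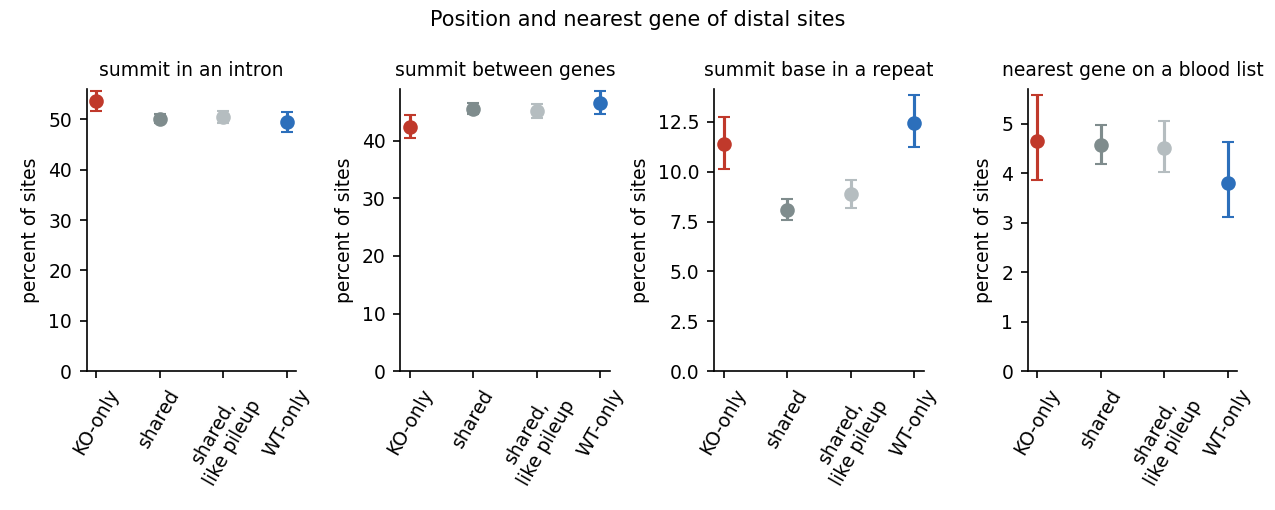
Percent of distal sites (y axes, from 0) with the summit in an intron, between genes or on a repeat base, and with the nearest coding gene on 1 of 6 blood lists. Points are shares and bars 95% Wilson intervals for KO-only, shared, shared with pileups of 7 to 24, and WT-only sites. The KO-only intron share of 53.6% stands above the others, and the blood list shares overlap.

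Most KO-only distal sites stood alone. With summits up to 50 kb apart counted as neighbors, 1948 sites had no neighbor of their kind and 376 (16.2%) fell into 175 groups, of which 151 were pairs and 22 had 3 sites. Both groups of 4 lay near genes with several sites. One spanned 106 kb on chromosome 12 at Hpcal1, a neuronal calcium sensor gene, with fold enrichments of 3.76 to 5.91 and 3 shared sites among them. The other spanned 64.9 kb on chromosome 2 at Crb2 and Dennd1a, with 3.64 to 7.96 and 1 WT-only site inside it. By chromosome, KO-only sites made up 16.5% of the distal KO peaks of at least 400 bp on chromosome 2 and 21.6% on chromosome 1, with the other autosomes between these values.

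WT peaks were often close by. The nearest one lay a median of 11645.5 bp from the edge of a KO-only site, and 44.8% of the sites had one within 10 kb, against 38.4% of WT-only sites with a KO peak at that distance. Within 1 kb these shares were 4.91% and 5.43%. The nearest KO peak that overlapped a WT peak lay a median of 15125 bp away (14186 to 16161).

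The nearest protein-coding genes numbered 1878, of which 1554 had 1 KO-only site, 236 had 2, 63 had 3 and 25 had 4 or more. Of these 1878 genes, 1276 (67.9%) were also nearest to a shared distal site. A total of 552 were nearest to a WT-only site as well, 29.4% of the KO-only genes and 27.4% of the 2018 WT-only genes. Most genes nearest to a KO-only site thus had no WT-only site. Protein-coding genes numbered 21924 in all, so the KO-only genes had a WT-only site more often than genes at large. Genes at large include those on chromosome X and those nearest to no distal site of any group. The share among genes nearest to a shared distal site was not counted, so the comparison does not tell whether KO-only genes differ from other genes with distal sites. Of the 25 genes with 4 or more, 24 were nearest to a shared site.

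Zfhx3 led with 7 KO-only sites, all in its own introns across 1019 kb of chromosome 8 (107942644 to 108961630). Their fold enrichments were 13.1, 8.65, 5.65, 4.23, 4.23, 3.90 and 3.43, on 8 to 27 fragments. The gene had 9 shared distal sites and none in the WT list only. Of the 7 sites, 3 stood above the group median of 5.39. None of the 7 held the PU.1 letters.

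Bcl11a, which encodes a repressor needed for B cells and for silencing fetal globin, had 6 KO-only sites, 12 shared ones and none in the WT list only. Fold enrichment ran from 3.57 to 6.59, pileup from 7 to 14 fragments, and distance from 10.3 to 608 kb. Sites in its own introns were the nearer ones, and the strongest lay 335 kb away in an intron of the noncoding gene Gm12068.

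Etv6, an ETS repressor required for adult stem cells, had 5 KO-only sites, all in its introns, with fold enrichments of 5.69, 3.98, 3.54, 3.51 and 3.43. It also had 9 shared and 3 WT-only sites, so calls in 1 list only went both ways at this gene. Zmiz1, a transcription coactivator that works with Notch1, likewise had 5 KO-only and 3 WT-only sites, and its KO-only fold enrichments ran from 4.57 to 7.87. Its 2 strongest lay in introns of the antisense gene Zmiz1os1. Bmper, which binds bone morphogenetic proteins outside the cell, had 5 KO-only sites of 3.76 to 6.46, 7 shared ones and none in the WT list only. Gm10295, a predicted gene, had 5 of 4.13 to 8.12, with 1 WT-only site.

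**Figure D3:**
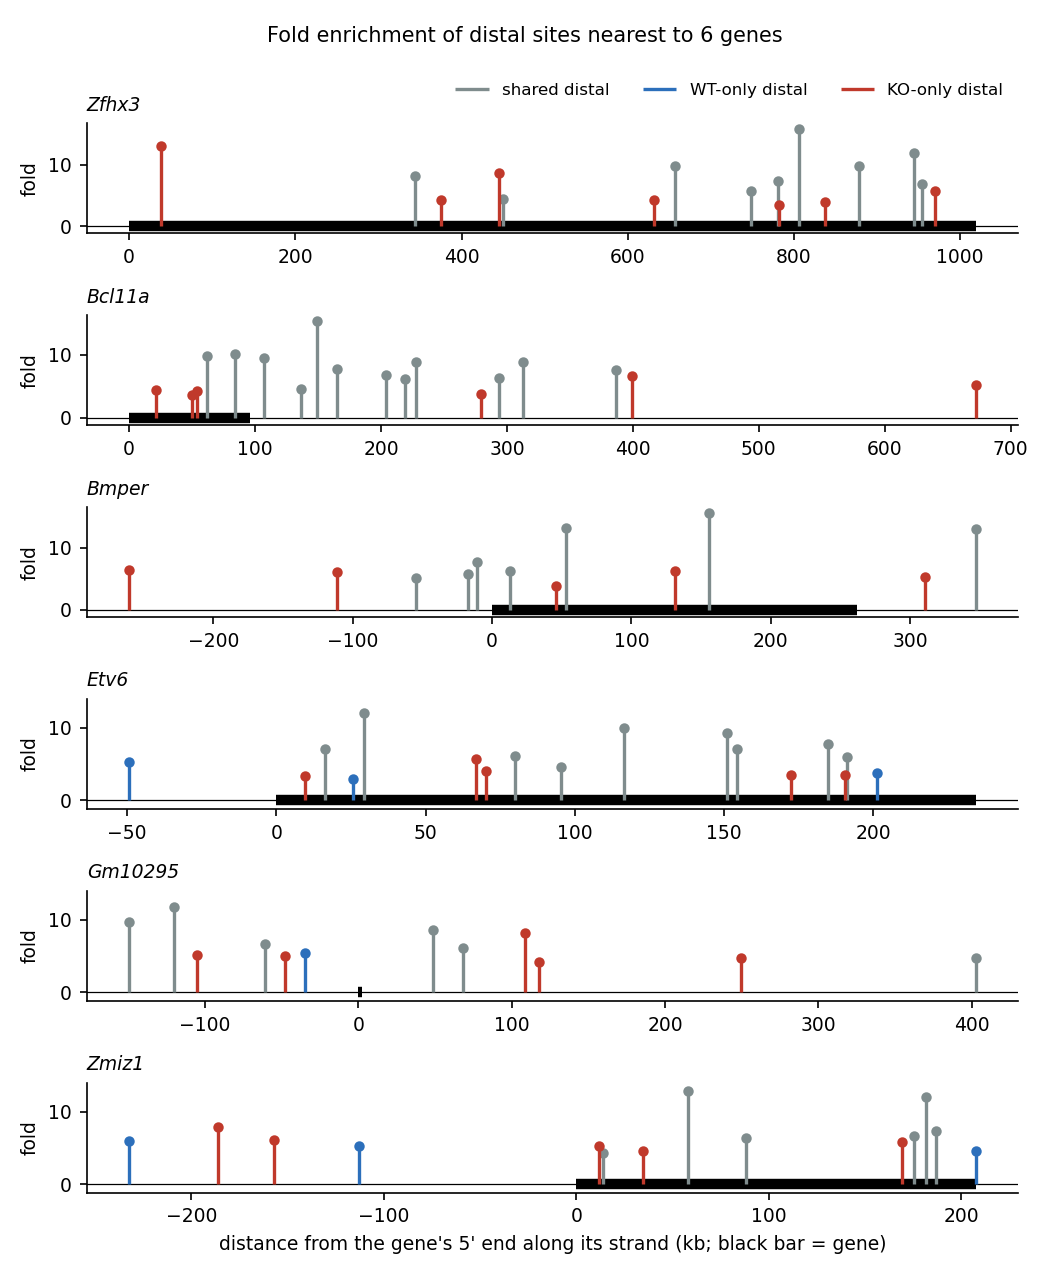
Fold enrichment (y axis) of distal sites nearest to 6 genes against the distance from the gene's start along its strand in kb (x axis; the black bar is the gene). Vertical lines are KO-only, shared and WT-only sites. KO-only sites run through the whole of Zfhx3, with the strongest, 13.1, near its start, and WT-only sites appear at Etv6, Zmiz1 and Gm10295 but not at Zfhx3, Bcl11a or Bmper.

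The other 19 genes had 4 KO-only sites each. Several act in blood cell growth or movement. The Cdk6 sites had fold enrichments of 14.5, 9.25, 4.23 and 3.76, those of the receptor gene Igf1r 7.32, 5.65, 4.15 and 4.12, all in its introns, and those of Diaph3, an actin nucleator, 11.05, 7.42, 6.12 and 3.29. Elmo1 (4.23 to 7.04) and Arhgap26 (4.79 to 7.53) encode regulators of the cytoskeleton, and Pde4b (4.46 to 6.59) a phosphodiesterase that breaks down cAMP. Gadd45g (5.18 to 7.01), a stress response gene, had 4 sites between genes, 61.9 to 309 kb away.

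Transcription and chromatin genes among the 19 were Nfib (4.02 to 7.53), Prdm2 (4.40 to 5.65), Zfat (3.76 to 6.59) and Cdc73 (4.23 to 6.59), a part of the Paf1 complex whose 4 sites lay 571 to 1030 kb away between genes. Nav2 introns held sites of 11.1, 8.84, 6.88 and 4.89, with 24 fragments at the first. Camk2d, a calcium and calmodulin dependent kinase gene, had 6.70, 6.46, 6.14 and 5.65, and Kctd1 had 9.13, 7.94, 5.76 and 5.18. Fry, Hpcal1, Pla2g4a and Sel1l made up the rest with Fbxo8. Fbxo8 was the single gene of the 25 with no shared distal site at all. Its sites of 9.41, 5.18, 4.70 and 4.19 lay 31.9 to 345 kb from its start. In 7 of the 25 genes no WT-only site was assigned, whereas most of the 1878 genes had none. In the WT list 14 genes had 4 or more WT-only sites.

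Genes on 6 blood lists took 108 KO-only sites, 4.65% (3.86 to 5.58), against 4.56% of shared and 3.80% of WT-only sites. The difference from WT-only sites was 0.848 points (−0.295 to 2.01). Of the 11 lists examined, the interval of the difference from shared sites included 0 in all 11. A gene could stand on several lists, as Vwf did.

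Stem cell genes were nearest to 30 KO-only sites (1.29%), against 1.09% of shared and 0.817% of WT-only sites. The intervals of both differences included 0. The 30 sites, 24 of them in introns, were at 16 of the 49 genes. The strongest lay in an intron of Kcnq1, 85.9 kb from Cdkn1c, which encodes the cell cycle inhibitor p57 that keeps stem cells quiescent. Its fold enrichment was 9.78 on 23 fragments, and Cdkn1c, like most genes with a KO-only site, had no WT-only site. A site 132 kb from Nr4a2, a nuclear receptor gene, had 8.41. Intron sites at Msi2, an RNA-binding regulator of stem cell output, at Satb1 and at Vwf had 7.31, 6.59 and 6.59. Mecom, encoding the stem cell transcription factor Evi1, had 3 KO-only sites, the strongest at 6.01 with the PU.1 letters, beside 8 shared sites and 1 WT-only site.

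Myeloid genes were nearest to 13 KO-only sites (0.559%), against 0.618% of shared and 0.694% of WT-only sites, with intervals that overlapped. These 13 sites were at 11 of the 76 genes. Lyz2, the lysozyme gene of macrophages and granulocytes, had a site 7.27 kb away with a fold enrichment of 9.77 and 20 fragments, beside 1 WT-only site. Sites nearest to the transcription factor genes Maf, Klf6 and Klf4 had 6.60, 6.59 and 6.59 but lay 190, 350 and 231 kb away. Each of these genes also had WT-only sites. An exon site of the lectin gene Clec4e had 6.37, and an intron of Csf2rb, the shared receptor chain for GM-CSF and IL-3, held one of 6.27.

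At Cebpa, the gene of a key factor of myeloid differentiation, no KO-only site met the rule. Within 50 kb of the gene (chromosome 7, 35119293 to 35121928) there were 3 KO-only peaks, of which 2 lay within 2.5 kb of a start site and 1 was distal but narrower than 400 bp. The nearest selected site was 52.8 kb from its start. At Med23 itself (chromosome 10, 24869986 to 24913681) there was no KO-only peak within 50 kb, and peaks of open chromatin give no check of the deletion.

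Megakaryocyte and platelet genes took 14 KO-only sites, 0.602% against 0.570% of shared and 0.449% of WT-only sites, with the strongest 6.94 kb from Zfpm1, which encodes the GATA1 partner FOG1 (8.89), and others near Plek (7.47), Itga6 (7.43), Vwf (6.59) and Slc14a1 (5.43). Erythroid genes took 9 sites at only 3 genes, of which 6 belonged to Bcl11a, and made up 0.387% of KO-only, 0.390% of shared and 0.204% of WT-only sites. The others were nearest to Trib2 (5.65 at the strongest) and Car2 (4.23). Cytokine receptor and signaling genes took 17, or 0.731%, against 0.969% and 0.694%. An intron of Tgfbr1, the type I receptor for TGF-β, held one of 9.20 and 20 fragments, in a gene with neither shared nor WT-only distal sites. An intron of Smad7, an inhibitor of the same pathway, held one of 7.47 beside 12 shared sites. Insr, Il1r1 and Socs3 had strongest sites of 6.12, 5.65 and 4.99.

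Lymphoid genes took 30 sites (1.29%) at 21 of 77 genes, against 1.04% of shared and 1.02% of WT-only sites. The intervals of both differences included 0. Foxo1 had 3 of them, including the 13.6 described above. Gata3, the T cell and type 2 lymphocyte factor, had one of 8.46 at 185 kb, with RUNX and GATA letters, and 2 WT-only sites. Bank1, a B cell scaffold gene, had 7.33, Notch1 6.72 in an intron, Lax1 6.71 and Notch2 6.69. Neither Notch gene had a WT-only site, like most genes with a KO-only site.

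Outside the blood lists, neuronal genes took fewer KO-only than WT-only sites. The 39 KO-only sites were 1.68% of their group (1.23 to 2.29) and the 80 WT-only sites 3.27% (2.63 to 4.05), a difference of −1.59 points (−2.49 to −0.711). Shared sites stood between them at 2.29%. At pileups of 12 or more, a limit chosen after the data were seen, the difference was −1.44 points (−2.82 to −0.188). Even so, single KO-only sites at neuronal genes were strong: Ptprd 14.3, Sema6d 10.8, Gria1 10.2, Cdh6 10.1, Cntn4 9.68 and Kcnh8 9.32.

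Cell cycle genes took 16 KO-only sites at 12 of 46 genes, 0.688%, against 0.437% of shared and 0.327% of WT-only sites. The interval of the difference left out 0 only against the shared sites in the pileup range (0.370 points, 0.0538 to 0.811). Besides Cdk6, strong sites lay 11.9 kb from E2f7 (11.5), a repressor of the cell cycle, and 10.3 kb from Mycl (10.4), a MYC family gene. Like most genes with a KO-only site, neither E2f7 nor Mycl had a WT-only site. Ccnd2, Ccne1 and Rbl2 had 7.53, 5.65 and 4.92.

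Chromatin and cofactor genes took 27 sites, 1.16% against 1.01% of shared and 1.02% of WT-only sites, led by an intron of the histone acetyltransferase gene Kat6b at 12.05 and 26 fragments. Kdm4c, Zmiz1, Bptf, Runx1t1 and Arid2 followed at 8.26, 7.87, 7.76, 7.71 and 7.19. Adhesion and cytoskeleton genes took 36 sites, 1.55% against 1.31% and 1.18%, with Diaph3 (11.05), Itga8 (10.5), Dock10 (9.88), Arhgap24 (8.00), Itga6 (7.43) and Rac1 (7.24) at the top. Developmental transcription factor genes took 32, 1.38% against 1.48% of shared and 1.92% of WT-only sites, and the difference from the latter was −0.543 points (−1.28 to 0.190). After Zfhx3 the strongest there were near Tshz1 (11.2), Onecut1 (8.52), Nfib (7.53), Gli3 (7.48) and Sall3 (7.17).

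Sequence around the summits was searched for the letters of 13 motifs on both strands in 200 bases. The letters were GAGGAAGT for PU.1, CCGGAAGT for ETS, ACAGGAAG for ERG, TGTGGT for RUNX, AGATAA for GATA, TTGCNNAA for C/EBP, TGACTCA for AP-1, CAGATG for the E-box, AGGNGGCA for CTCF, TGACAG for MEIS, GAAANNGAA for IRF, GGGTGTGG for KLF and AACGGC for MYB. Matches of different motifs may overlap, and a match is a run of letters and not a bound site. RUNX letters were the most frequent, in 587 KO-only sites (25.3%), followed by MEIS (15.5%), E-box (15.1%), IRF (11.1%) and GATA (10.5%). Over all autosomal KO peaks these shares were 20.1%, 13.9%, 12.3%, 8.13% and 8.45%. C/EBP letters stood in 9.81% of KO-only sites and 7.64% of all KO peaks, ERG in 7.44% and 6.18%, AP-1 in 7.36% and 6.19%, and CTCF in 6.07% and 6.31%. MYB letters stood in 2.15% and 3.62%, KLF in 1.64% and 2.23% and ETS in 0.387% and 2.34%. All KO peaks include those near start sites. In shared and WT-only distal sites C/EBP letters stood in 9.72% and 9.11%, MEIS in 16.1% and 14.8% and E-box in 15.6% and 14.95%. For C/EBP, MEIS and E-box the intervals of both differences from KO-only sites included 0. IRF letters stood in 10.5% of shared sites, and the interval of that difference also included 0. None of the 13 was found in 27.3% of KO-only, 23.3% of shared and 30.2% of WT-only sites.

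Of the 13 motifs, the PU.1 letters differed most between KO-only and WT-only sites. They stood in 208 KO-only sites (8.95%, 7.86 to 10.2) and in 140 WT-only sites (5.72%, 4.87 to 6.71), a difference of 3.23 points (1.76 to 4.73). Shared sites had them in 9.71% and all autosomal KO peaks in 6.93%. The difference of KO-only from shared sites was −0.763 points (−2.00 to 0.584). Against shared sites in the pileup range, of which 8.56% held the letters, it was 0.391 points (−0.917 to 1.79). Of the 13 motifs, 2 differed between KO-only and WT-only sites with an interval that left out 0, and IRF was the other, at 1.75 points (0.0275 to 3.48).

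Peak height moved with the PU.1 share. In KO-only sites it was 5.65% at pileups of 6 to 9, 9.18% at 10 to 14, 10.4% at 15 to 19 and 12.5% at 20 to 29. In WT-only sites the same steps gave 4.51%, 5.82%, 7.62% and 8.08%, lower than the KO-only share at each step, with overlapping intervals at all but the step of 10 to 14. Shared sites also rose, at 5.18%, 7.12%, 9.50% and 10.6%, with intervals that overlapped the KO-only ones at each step. At pileups of 12 or more the difference between KO-only and WT-only sites was 4.67 points (2.27 to 7.04). Pileup also depends on the depth of each list, and the part of depth in this difference was not tested.

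**Figure D4:**
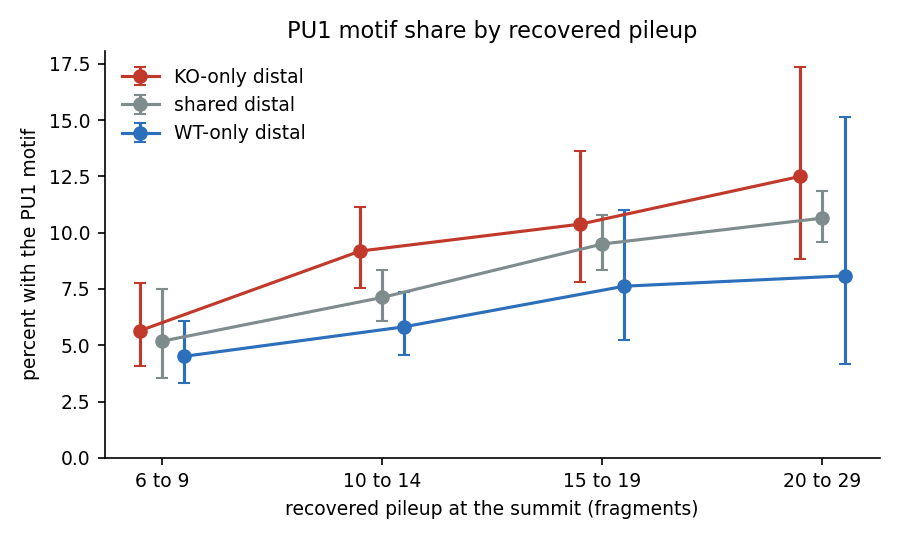
Percent of distal sites with the PU.1 letters GAGGAAGT within 100 bp of the summit (y axis) at 4 ranges of recovered pileup in fragments (x axis). Points are shares and bars 95% Wilson intervals. The KO-only share runs from 5.65% to 12.5% and lies above the WT-only share, 4.51% to 8.08%, in each range. The share of shared sites, 5.18% to 10.6%, lies between them.

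Among the 208 sites with PU.1 letters the nearest match was a median of 33 bp from the summit, and 8 sites had more than 1. Their median fold enrichment was 6.09, against 5.27 for the other KO-only sites. The strongest was the Flrt2 site shown above, and next came an intron of the bicarbonate transporter gene Slc4a4 (12.9), a site 177 kb from Nampt (12.2), which makes NAD, an intron of Pigk nearest to St6galnac5 (11.8) and an intron of Nav2 (11.1). Only 8 of the 208 were nearest to a gene of the blood lists.

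Of the 13 motifs, 4 were less frequent in KO-only than in shared sites with an interval that left out 0, namely GATA, RUNX, ERG and AP-1. GATA differed by −2.41 points (−3.76 to −0.960) and by −1.74 points (−3.18 to −0.209) against shared sites in the pileup range. RUNX differed by −3.64 points (−5.58 to −1.64) against all shared sites, but the interval included 0 against those in the pileup range, where they stood in 26.6%. ERG differed by −1.46 points (−2.61 to −0.205) and AP-1 by −1.30 points (−2.44 to −0.0521) against all shared sites, and both intervals included 0 against those in the pileup range. Against WT-only sites, at 12.01% for GATA and 23.0% for RUNX, both intervals included 0.

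**Figure D5:**
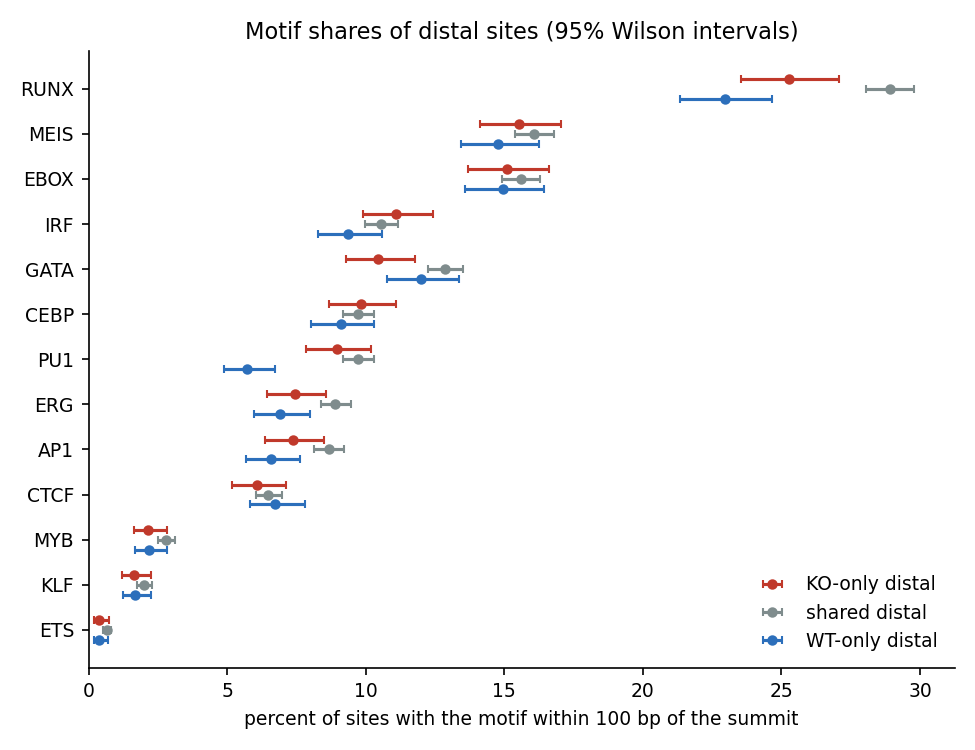
Percent of distal sites with each of 13 motifs within 100 bp of the summit (x axis), by motif (y axis, ordered by the KO-only share). Points are shares and bars 95% Wilson intervals. KO-only and WT-only intervals are apart for PU.1 (8.95% and 5.72%), and shared sites lie above KO-only sites for RUNX (28.9% and 25.3%) and GATA (12.9% and 10.5%).

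Base composition differed little. The 200 bases around the summit had a median of 47.5% G and C (47.0 to 48.0) in KO-only sites, 49.5% in shared and 48.0% in WT-only sites. The summit base was marked as repeat in 264 KO-only sites (11.4%, 10.1 to 12.7), more often than in shared sites (8.07%, difference 3.29 points, 1.95 to 4.74) and at a share close to that of WT-only sites (12.5%).

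Within the group, weak and strong sites were not alike. Among the 581 sites of lowest fold enrichment (2.60 to 4.43), 57.0% lay in introns, 15.8% of the summits in repeats and 4.99% of the windows held PU.1 letters. Among the 581 of highest fold enrichment (6.69 to 16.0) these shares were 49.9%, 8.78% and 12.2%. RUNX letters stood in 18.9% of the lowest set and 29.9% of the highest, while GATA letters stood in 9.81% and 9.64%. Genes of the blood lists were nearest to 40 sites of the lowest set and to 15 of the highest. These sets were defined by a value that the calling used, so these shares are a description.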

How the data were processed

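ATAC-seq peak lists of 4 samples, 2 per genotype, were used. Per the labels and methods, the authors trimmed reads with Trim Galore, used Bowtie2 for alignment to mm10 and Picard to drop duplicates and mitochondrial reads, and ran MACS2 without a fragment model to call peaks. Versions, read shifting, extension size and pooling of replicates are not given in the sources used here. The deposited values are the authors' fold enrichment (a ratio of summit pileup to local background, with 1 added to each) and −log10 p and q. The deposited lists give no read depth. From fold and −log10 p, a whole-number pileup within 0.001 was solved for 99.99% of KO and 100% of WT peaks. Genes and introns came from GENCODE M21, sequences from GRCm38.p6. Exons took precedence over introns, and introns of any gene type counted. The nearest gene was that of the nearest protein-coding start site, which need not be a target. Of 698 list symbols 696 matched. Intervals are 95% Wilson (shares), Newcombe (differences) and order-statistic (medians). Named are the 12 strongest sites, genes with 4 or more sites, up to 6 genes per list by fold, the sites at each limit, the 5 widest, Cebpa and Med23. The sites with PU.1 letters and those in the last part were named after their values were seen. The members and lists were chosen with earlier results of these data known. Python 3.11.15, pandas 2.3.3 and scipy 1.17.1 were used, and the code was tested on simulated data. A few genes and site sequences are not reported here.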

Additional observations from a re-analysis of the deposited data

How the results depend on the processing

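No paired analysis was possible because both replicate numbers of a genotype point to 1 peak list, and leaving out a replicate could not be run for the same reason. The number of KO-only distal sites, 2324, became 1495 with KO peaks of −log10 q 5 or more against all WT peaks, 492 at 10 or more, 3986 when sharing required at least 50% of both peaks to overlap, 5577 and 661 at widths from 250 and 600 bp, and 1424 beyond 10 kb of a start site. KO-only minus WT-only sites, −124 (2324 and 2448), reversed to 404 at −log10 q 5 or more against all peaks of the other list, 276 at 10 or more, 1106 at 5 or more in both lists and 371 from 250 bp. The intron share, 53.6%, became 49.2% at −log10 q 10 or more, 51.1% at 5 or more in both lists, 55.8% from 600 bp and 50.8% beyond 10 kb. The PU.1 share, 8.95%, became 11.1% and 12.6% at −log10 q 5 or more and 10 or more, and 5.94% and 11.6% in windows of 100 and 400 bp. The blood list share, 4.65%, became 3.66% at −log10 q 10 or more, 3.79% beyond 10 kb and 2.07% with the nearest gene of any type. The causes were not tested. Of 104 values under other settings 65 left the value within its interval or its count within 1.5 times. Limits on pileup, chosen after seeing the data, kept 7 differences within their intervals. They were the intron, PU.1, GATA and repeat shares against shared sites in the pileup range, and the PU.1, neuronal list and intron shares with both 1-list groups limited to 12 or more. Of these, the PU.1 difference from shared sites changed sign, from −0.763 to 0.391 points, and both intervals included 0. The RUNX difference from shared sites moved from −3.64 to −1.36 points and its interval then included 0.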

Other observations

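KO-only distal peaks narrower than 400 bp, left out above, were more numerous than those kept. The 3283 had a median fold enrichment of 4.71 and a median width of 307 bp, and 51.3% (49.6 to 53.0) lay in introns. PU.1 letters stood in 9.23% of them (8.29 to 10.3). The strongest lay 14.6 kb from Snapc3, with a fold enrichment of 15.8 and 44 fragments. Snapc3 encodes a subunit of a complex that acts in the transcription of small nuclear RNA genes. The next were near Phlda3 (15.2), an inhibitor of AKT signaling, and 4930474N05Rik (14.7).

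On chromosome X, which the rule leaves out, 54 KO-only and 65 WT-only sites met the other limits. The KO-only ones had a median fold enrichment of 5.65. The strongest was 41.5 kb from Sat1, an enzyme of polyamine breakdown (11.3), followed by sites near Sh3kbp1 (10.8), an adaptor in receptor endocytosis, and Arhgap6 (10.8).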
